A study of Mus musculus with 2 samples.

Results

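Cluster B3 is the most mature of 4 B lineage clusters that the authors of the data named in livers of mice at postnatal day 15. Its members are the cells with the cluster name B3 in the authors' deposited annotation, matched by barcode to the deposited counts. They number 1310 of 15835 annotated cells, with 479 from the c-Maf KO library and 831 from the control library. The c-Maf KO library came from mice without c-Maf in endothelial cells, pooled from 1 female and 1 male, and the control library from 1 female and 1 male of the control kind. Both held sorted endothelial and hematopoietic liver cells run on a 10x Chromium droplet system, in which a unique molecular identifier (UMI) marks each captured transcript. The sample titles name the deletion as one of endothelial cells, so B cells were not its stated target. Neither the driver of the deletion nor the strain is stated in the labels. Each genotype has 1 library. A difference between them therefore has no replicate check and no test, and every 95% interval covers counting error only.

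B cells arise from common lymphoid progenitors through stages at which the immunoglobulin heavy chain and then a light chain are assembled. In the mouse the fetal liver is a main site of this process before the bone marrow takes over. A cell with a complete receptor first carries IgM, and on maturing adds IgD, the low-affinity IgE receptor CD23 and complement receptors, and shows antigen to T cells on MHC class II. A class II molecule is a pair of an alpha and a beta chain, such as those encoded by H2-Aa and H2-Ab1 or by H2-Eb1, which the invariant chain CD74 guards until a peptide is loaded. Beside follicular B cells, mice have B-1 cells, a self-renewing type laid down early in life that secretes natural IgM.

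Class II promoters are known for an X box and a Y box, of which the Y box is an inverted CCAAT sequence. The 300-base RefSeq promoter windows (GRCm38.p6, 250 bases before to 50 after a start) were searched for the letters GATTGG. They stood on the gene strand in 8.706% of 32851 windows and on either strand in 16.11%. Of 17 genes in a list of MHC class II presentation, 13 had an entry and 9 held GATTGG on the gene strand. The letters GCAAC lay 10 to 40 bases before GATTGG in 5 of these genes, against 0.2648% of all windows. The stretches of these 5 genes, which include the B3 markers H2-Aa and H2-Eb1, are printed below with GATTGG and the GCAAC before it in capitals. They were chosen for holding both, so their likeness in these letters was fixed in advance. H2-DMa, H2-DMb1, H2-DMb2 and Rfxank held GATTGG on the gene strand without such a GCAAC. A match of letters is a description of the window and not a binding site.
H2-Aa, chr17:34287851-34287922, minus strand: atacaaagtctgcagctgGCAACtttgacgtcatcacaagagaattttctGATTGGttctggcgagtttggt
H2-Eb1, chr17:34305757-34305828, plus strand: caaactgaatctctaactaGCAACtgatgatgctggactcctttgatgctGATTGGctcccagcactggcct
H2-Eb2, chr17:34325524-34325595, plus strand: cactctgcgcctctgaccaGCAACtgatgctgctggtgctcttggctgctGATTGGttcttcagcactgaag
H2-Oa, chr17:34092285-34092356, plus strand: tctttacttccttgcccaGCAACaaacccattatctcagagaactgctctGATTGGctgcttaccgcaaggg
H2-Ob, chr17:34238797-34238868, plus strand: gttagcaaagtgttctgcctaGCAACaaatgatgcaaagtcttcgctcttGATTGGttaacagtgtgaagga
GATTGG began 49 bases before the start of H2-Aa, 60 before that of H2-Eb1, 101 before H2-Eb2, 44 before H2-Oa and 58 before H2-Ob. Between GCAAC and GATTGG lay from 24 bases in H2-Ob to 27 in H2-Aa and H2-Oa.

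There were 60281713 UMIs over 9058 barcodes for c-Maf KO and 54143192 UMIs over 9038 barcodes for control. B3 cells of c-Maf KO were the shallower ones: their median was 3612 UMIs and 1377 genes, against 4414 UMIs and 1576 genes in control B3. Summed over the cluster they held 2139619 UMIs in the c-Maf KO and 4444249 in the control library. The median share of mitochondrially encoded UMIs was 6.31% in c-Maf KO and 7.37% in control B3. The libraries shared 25 barcodes, and 6 of these belonged to a B3 cell of either library. Levels are given as CPM, the UMIs of a gene scaled to a total of 1000000 UMIs in the cluster. Maf itself, the gene deleted in endothelial cells, had 11.2 CPM (7.19 to 16.7) in c-Maf KO and 17.6 CPM (13.9 to 21.9) in control B3, and was not called different (log2 ratio -0.63, -1.37 to 0.03). In the T cell cluster T-Cd6 it had 15.6 CPM in c-Maf KO and 27.4 in control.

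The 5 genes given as markers of B3 were all abundant in it. H2-Aa (chr17:34282744-34287823) had 2902 CPM in c-Maf KO and 3029 in control B3, and H2-Eb1 (chr17:34305867-34316674) had 2222 and 2226. In the c-Maf KO library B3 had the highest level of both among 20 clusters of at least 50 cells. In the control library it came second of 19, after the authors' cluster Leukocytes_2, where H2-Aa reached 8745 CPM. The same cluster of c-Maf KO has 42 cells and so is not among the 20, and it had 7631 CPM of H2-Aa and 5884 of H2-Eb1, both above B3. Fcmr (chr1:130865669-130880791), the receptor for IgM, was highest in B3 in both libraries, at 717 CPM in c-Maf KO and 712 in control. Cd74 had 11856 CPM in c-Maf KO and 12432 in control B3, little above B2, the immature cluster, with 11181 and 12174. Igkc (chr6:70726435-70726966), the kappa light chain constant gene, had 9407 CPM in c-Maf KO and 9112 in control B3 and was higher in B2, with 15156 and 13960. Coordinates are those of GENCODE M21 on GRCm38.

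B3 made up a smaller part of the B lineage in the c-Maf KO library. Of the cells in CLP, B1, B2 and B3 together, 17.9% (16.4% to 19.4%, Clopper-Pearson) were B3 in c-Maf KO and 46.2% (43.9% to 48.5%) in control. Among all hematopoietic cells the shares were 9.42% in c-Maf KO and 18.1% in control. The annotation also calls a sex for each cell, and in B3 the call was female for all cells with a UMI of Xist, the X inactivation transcript, and male for all without. A UMI of 4 Y-linked genes was present in 97 of 189 c-Maf KO and 287 of 548 control B3 cells called male, and in 11 of 290 and 10 of 283 called female. A call of male can therefore include cells of the female mouse in which no Xist was caught. With that limit, B3 was 22.1% of the B lineage in the c-Maf KO female and 13.8% in the c-Maf KO male, against 37.0% in the control female and 52.9% in the control male. Both c-Maf KO values lay below both control values. In B1 the shares were 34.9% in the c-Maf KO female and 47.9% in the c-Maf KO male, against 28.5% and 7.44% in the control female and male. Fewer B3 cells and more precursors cannot be told apart in such shares. The labels do not say how the sort gates were set, and their part in the shares was not tested.

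**Figure D1:**
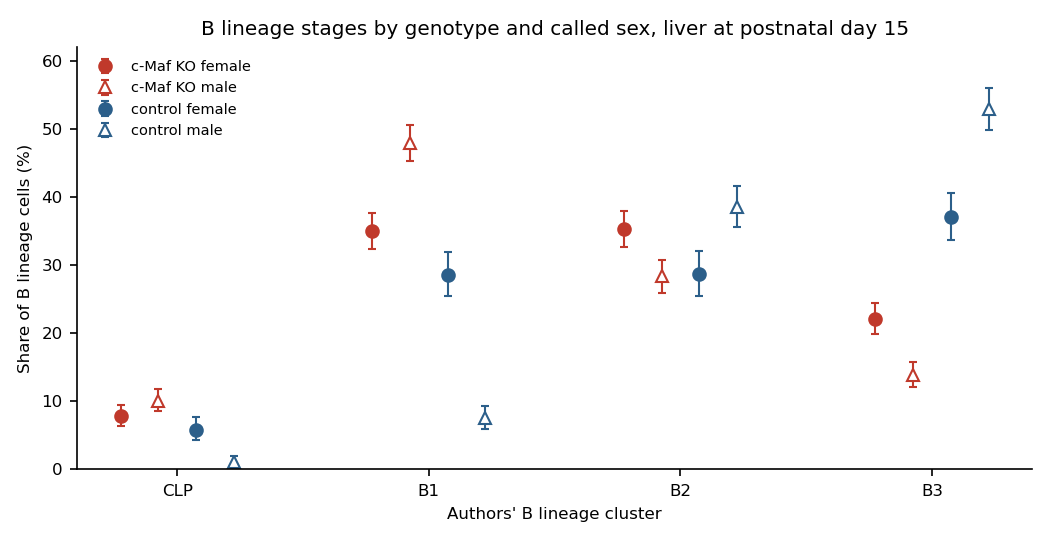
Share of B lineage cells (%) in the clusters CLP, B1, B2 and B3, for cells called female (filled circles) and male (open triangles) in the c-Maf KO (red) and control (blue) libraries, with exact 95% binomial intervals. In B3 the c-Maf KO points stand at 22.1% and 13.8% and the control points at 37.0% and 52.9%, while in B1 the control male stands lowest, at 7.44%.

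The clusters CLP, B1, B2 and B3 formed an order in which genes of heavy and light chain assembly ended before B3. Calls rest on a rule of size: a gene counts as higher or lower where its CPM differ 1.5-fold or more, the ratio's interval leaves out 1, and the 2 summed clusters hold 50 UMIs or more of it. Since the clusters were made from these same genes, contrasts between clusters describe B3 and are no test. By this rule 354 of 7205 genes (4.91%) were higher and 868 (12%) lower in B3 than in B2 of c-Maf KO, and the median log2 ratio over all of them was -0.17. In the control library 362 of 7826 genes (4.63%) were higher and 899 (11.5%) lower, around a median ratio of -0.19. Of 15 genes in a list of pro-B and pre-B cells, 6 had enough UMIs in the c-Maf KO library and 5 of them were lower in B3 than in B2, while 4 of 5 were lower in the control. In the control library Lef1, a Wnt pathway transcription factor, was higher, at 18.001 CPM in B3 and 9.72 in B2. Rag1, which cuts the DNA for receptor assembly, had 370, 295, 11.6 and 2.34 CPM from CLP to B3 in c-Maf KO and 276, 274, 6.02 and 0.900 in control. Vpreb1, a part of the surrogate light chain, had 4.21 CPM in B3 and 6303 in CLP of the c-Maf KO library, and 1.80 and 4942 in those of the control. Rag2 had 0 UMIs in B3 of either library, which allows up to 3 UMIs, or 1.40 CPM in c-Maf KO and 0.675 in control.

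Genes of immature and transitional B cells had UMIs in B3, for most of them at reduced levels. Of 7 such genes, 6 were lower in B3 than in B2 in each library, against 12% of all genes in c-Maf KO and 11.5% in control. Vpreb3, a chaperone of the assembling B cell receptor, had 6110, 4198, 1729 and 304 CPM from CLP to B3 in c-Maf KO, and 5236, 4304, 1279 and 260 in control. It was nonetheless detected in 57.4% of c-Maf KO and 53.0% of control B3 cells, against 5.24% and 2.93% of T-Cd6 cells, taken as background, whose median depths were 5478 and 5609 UMIs. Cd93, the AA4.1 antigen of transitional B cells, had 18.7 CPM in B3 and 52.3 in B2 of c-Maf KO, and 15.8 and 34.3 in the control. Cd24a, the heat-stable antigen, had 236 CPM in B3 and 813 in B2 of c-Maf KO, and 239 and 847 in the control. Cd79a, the receptor's signalling chain, was the member not called, with 3303 CPM in c-Maf KO B3 and 3197 in control B3.

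Genes of mature follicular B cells were at their highest in B3 for 16 of 22 members in each library. The share of all genes highest in B3 is not given here. Against B2, 13 of the 22 were higher and 4 lower in the c-Maf KO library. In the control 11 were higher and 4 lower. The shares of all genes against B2 were those given above. Ighd, the IgD heavy chain, had 58.6, 69.6, 238 and 563 CPM from CLP to B3 in c-Maf KO and 44.6, 74.0, 327 and 569.5 in control. Fcer2a, which encodes CD23, had 355 CPM in B3 and 63.9 in B2 of c-Maf KO, and 368 and 83.3 in those of the control. Its UMIs were found in 55.7% of c-Maf KO and 61.97% of control B3 cells, and in 0.476% and 0.901% of T-Cd6 cells. Cr2, the complement receptor CD21, had 32.2 CPM in c-Maf KO and 40.1 in control B3. Ccr7, a chemokine receptor that directs lymphocytes to T cell zones, had 212 CPM in B3 and 116 in B2 of c-Maf KO, and 211 and 167 in those of the control. The 4 lower members were the same in both libraries. They were Ms4a1, which encodes CD20, Tnfrsf13c, the receptor for the survival factor BAFF, the proton channel gene Hvcn1, and Cd40, the receptor for T cell help. Tnfrsf13c had 204 CPM in c-Maf KO and 163 in control B3, against 536 and 442 in B2.

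MHC class II presentation genes were highest in B3 among the 4 stages for 14 of 17 members in c-Maf KO and 12 in control. The share of all genes highest in B3 is not given here. From CLP to B3, H2-Aa had 61.4, 107, 1287 and 2902 CPM in c-Maf KO and 35.7, 124, 1484 and 3029 in control. Of 17 members of the class II list, 10 were higher and 1 lower in B3 than in B2 of the c-Maf KO library, and 6 higher and 2 lower in the control. Over all genes 4.91% were higher and 12% lower in c-Maf KO, and 4.63% and 11.5% in control. The 5 genes whose promoters are printed above had log2 ratios of B3 over B2 from 0.55 for H2-Oa to 2.503 for H2-Eb2 in c-Maf KO, and from 0.58 to 2.23 in control. The median over all 17 members was 0.67 in c-Maf KO and 0.56 in control. Ciita, the coactivator of class II transcription, had 117 CPM in c-Maf KO B3 and 100.1 in control B3, against 66.5 and 67.6 in B2. Ifi30, a reductase that opens antigen disulfides in lysosomes, was lower in B3 in both libraries, with 688 CPM in c-Maf KO and 765 in control B3, against 1507 and 1448 in B2. Of 21 measured chemokine receptor and homing genes, 11 in c-Maf KO and 9 in control were higher in B3 than in B2. The shares of all genes were 4.91% and 4.63%. Gpr183, an oxysterol receptor that guides B cells in follicles, had 93.5 CPM in c-Maf KO and 119 in control B3, against 17.4 and 30.1 in B2. S phase genes went the other way, with 13 of 18 lower in c-Maf KO and 15 of 18 lower in control. Of all genes 12% and 11.5% were lower. To compare shares at one depth, UMIs were drawn down to 2777 in every cell, and Mki67 or Top2a, both mitotic genes, then had a UMI in 5.63% (3.56% to 8.40%) of 391 c-Maf KO and 4.19% (2.90% to 5.83%) of 788 control B3 cells. In B2 cells these shares were 7.66% and 2.83%, and in T-Cd6 cells 6.09% and 7.34%. The annotation places 19 c-Maf KO and 45 control T-Cd6 cells in S phase, so T-Cd6 is no background for these genes. Whether B3 cells cycle is not settled by these shares. Thinning left out 88 c-Maf KO and 43 control B3 cells, and without it the B3 shares were 8.14% and 7.70%.

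**Figure D2:**
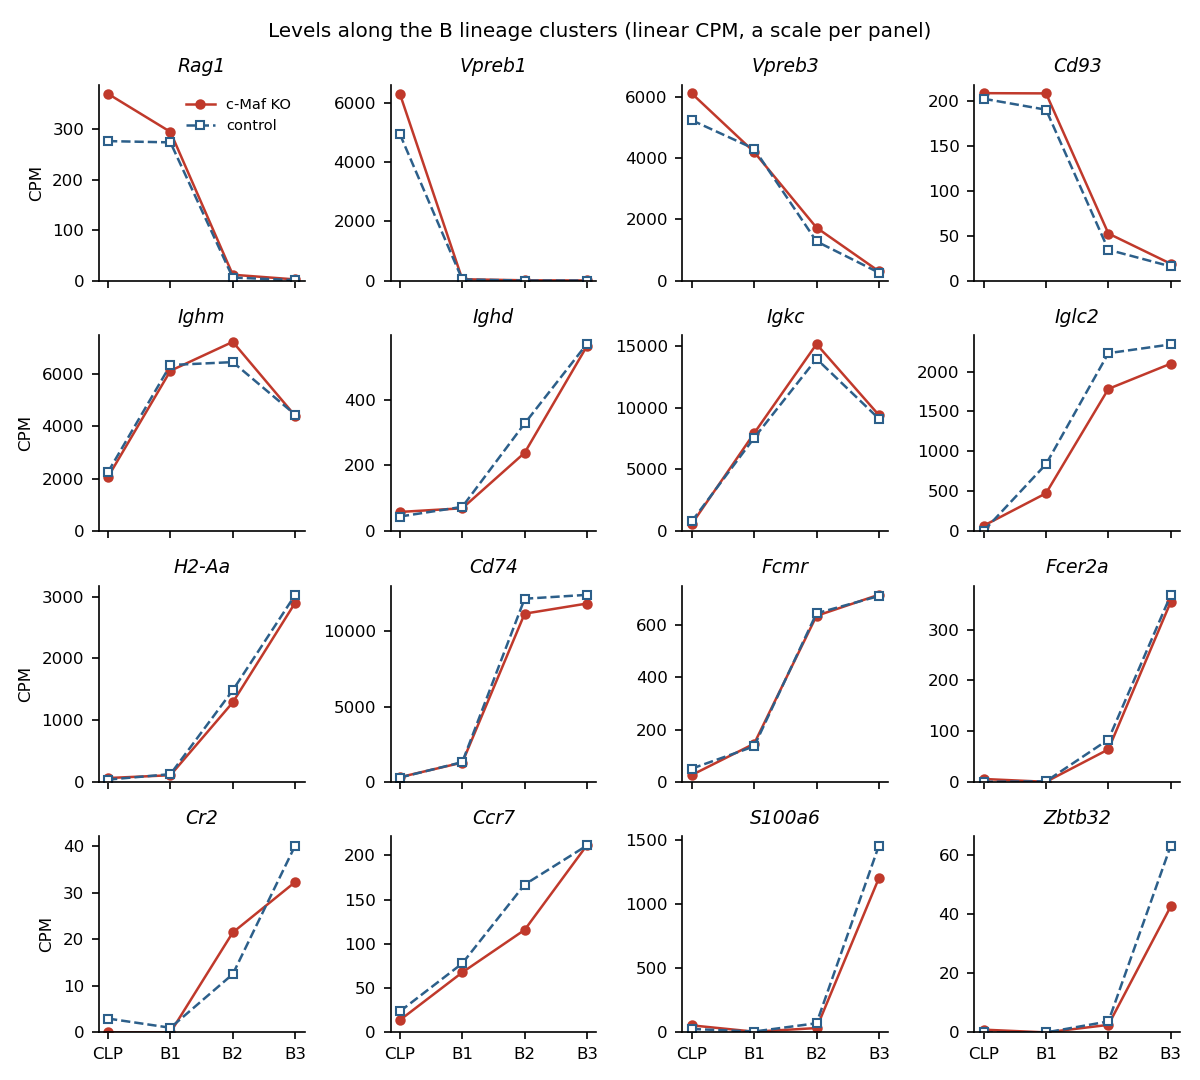
Levels of 16 genes (CPM, linear axis with a scale per panel) in the clusters CLP, B1, B2 and B3 of the c-Maf KO (red, filled) and control (blue, open) libraries. Rag1 and Vpreb1 are near 0 in B3, Ighd, H2-Aa, Fcer2a and Ccr7 are highest there in both libraries, and the lines of the libraries lie close together in B3 for most panels.

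The genes that set B3 furthest above B2 were not those of follicular cells alone. By the smaller of the ratios in the libraries, the leading 8 were S100a4 and S100a6, both calcium-binding proteins, Gimap4, a GTPase of lymphocytes, Anxa2, Sfn, Fxyd5, Fcer2a and Ass1. S100a6 had 1201 CPM in B3 and 33.8 in B2 of c-Maf KO, and 1453 and 71.3 in those of the control. S100a4 had 152 CPM in B3 and 5.81 in B2 of c-Maf KO, and 213 and 6.02 in the control. Those with the lowest ratios included Wfdc21, Vpreb3, Akap12, Ift22, Lynx1, Sox4 and Atp1b1. Wfdc21 had 13.6 CPM in B3 and 91.2 in B2 of c-Maf KO, and 9.23 and 85.2 in the control.

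S100a6, Anxa2 and Zbtb32 also belong to a list of B-1 and fetal-type B cell genes, and each had a UMI in a minority of B3 cells, from 8.56% for Zbtb32 to 29.0% for S100a6 in c-Maf KO and from 13.6% to 32.4% in control. Zbtb32, a transcription factor of B-1 and memory B cells in the mouse, had 42.5 CPM in c-Maf KO and 63.0 in control B3. Elsewhere it did not pass 5.44 CPM in the clusters of at least 50 cells of c-Maf KO, or 11.2 in those of the control. A Zbtb32 UMI was present in 41 of 479 c-Maf KO B3 cells, or 8.56% (6.21% to 11.4%), and 113 of 831 control B3 cells, or 13.6% (11.3% to 16.1%). In T-Cd6 the shares were 0.476% and 0.225%. By called sex, a Zbtb32 UMI was in 6.90% (female) and 11.1% (male) of c-Maf KO B3 cells. In control B3 cells these shares were 20.5% (female) and 10.0% (male). At 2777 UMIs a cell they were 3.08% and 5.49% in c-Maf KO, and 9.29% and 5.91% in control. Cells with Zbtb32 were deeper, with a median of 8447 UMIs against 3461.5 in the rest of c-Maf KO B3, and 9467 against 4125.5 in control B3. The split by Zbtb32 was chosen after its level was seen, and it was repeated with cells thinned to 2777 UMIs, which left 16 of 391 c-Maf KO and 56 of 788 control cells with a Zbtb32 UMI.

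Among thinned cells, those with Zbtb32 mostly lacked the IgE receptor CD23. Fcer2a was found in 0 of 16 cells with Zbtb32 (up to 20.6%) and 52.3% of those without in c-Maf KO B3, and in 5.36% (1.12% to 14.9%) and 56.7% (53.0% to 60.3%) in control B3. Ighd was found in 25% (7.27% to 52.4%) of c-Maf KO cells with Zbtb32 and 68.5% of those without, and in 14.3% (6.38% to 26.2%) and 75.1% of the control cells. S100a6 stood the other way, in 93.8% of cells with Zbtb32 and 26.1% without in c-Maf KO, and 92.9% and 23.9% in control. Bhlhe41, a transcription factor that mouse B-1a cells need, was in 43.8% (19.8% to 70.1%) with Zbtb32 and 8% without in c-Maf KO. In control it was in 21.4% (11.6% to 34.4%) and 10.2% (8.14% to 12.7%), with overlapping intervals. It was not particular to B3. Among all thinned cells it was in 9.46% of B3 and 13.6% of B2 in c-Maf KO, and 11.0% and 11.3% in control. In both libraries the intervals of the cells with and without Zbtb32 did not overlap for Fcer2a, Ighd, S100a6, Anxa2 and Plac8. The genes compared were chosen with earlier results of these data known. The share of all genes with such a gap is not given here, so these genes are not shown to stand out. Cd5, the surface marker of B-1a cells, was in 6.25% (0.158% to 30.2%) with Zbtb32 and 2.67% without in c-Maf KO, and 7.14% (1.98% to 17.3%) and 2.19% in control, with overlapping intervals. The other members of the B-1 list were compared in summed UMIs without thinning. Arid3a was called higher with Zbtb32 in both libraries. Igf2bp3 was level, with log2 ratios of 0.04 in c-Maf KO and -0.03 in control. Lin28b had 0 UMIs, and Spn, Itgam, Ctla4 and Pdcd1lg2 had too few for a call.

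**Figure D3:**
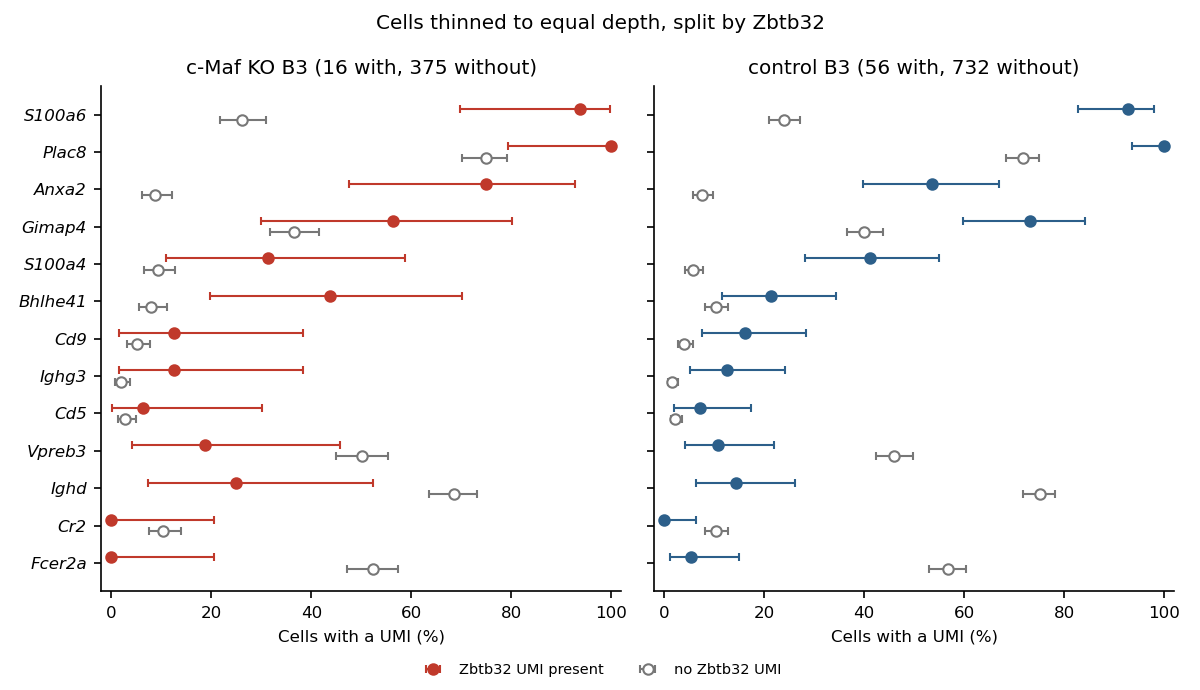
Share of B3 cells (%) with a UMI of each gene among cells with a Zbtb32 UMI (filled, colored) and without (open, grey), each cell thinned to 2777 UMIs, with exact 95% binomial intervals. The left panel holds 16 and 375 c-Maf KO cells and the right panel 56 and 732 control cells, and in both S100a6 and Anxa2 stand right and Fcer2a and Ighd left for the cells with Zbtb32.

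The heavy chain constant genes of B3 were almost all of the IgM and IgD classes. Ighm had 4402 CPM in c-Maf KO and 4448 in control B3. Ighg3, an IgG class that mice make without T cell help, had 36 UMIs in 18 of 479 c-Maf KO cells and 95 UMIs in 39 of 831 control cells, or 16.8 and 21.4 CPM. In B2 it had 1.45 CPM in c-Maf KO and 0 UMIs in control. With each cell thinned, Ighg3 was found in 12.5% (1.55% to 38.3%) of c-Maf KO B3 cells with Zbtb32 and 1.87% (0.754% to 3.81%) without, with overlapping intervals, and in 12.5% (5.18% to 24.1%) and 1.503% (0.752% to 2.67%) of control B3 cells. Over all UMIs, where cells with Zbtb32 were deeper, it was found in 29.3% (16.1% to 45.5%) of c-Maf KO B3 cells with Zbtb32 and 1.37% without, and in 27.4% (19.5% to 36.6%) and 1.11% of control B3 cells. Igha, the IgA class, had 14 UMIs in c-Maf KO and 32 in control B3, and Ighg1, Ighg2c and Ighe had 0 in both. Ighg2b had 3 UMIs in c-Maf KO and 70 in control B3, of which 69 lay in 1 cell.

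Kappa transcripts dominated the light chains, yet most B3 cells held UMIs of both types. Counted over Igkc and the lambda constant genes Iglc1, Iglc2 and Iglc3, 67.0% of 479 c-Maf KO and 71.8% of 831 control B3 cells had less than 80% of their light chain UMIs from 1 type. Among the assigned cells, 19.0% (13.2% to 26.0%) of 158 in c-Maf KO and 28.6% (22.9% to 34.9%) of 234 in control were lambda. These shares rest on the purity asked for and are not the cells' isotype. A purity of 95% left 9 kappa and 23 lambda cells in c-Maf KO and 5 and 46 in control. Cells with at least 95% lambda UMIs formed a separate peak, with 4.80% (3.07% to 7.12%) of all c-Maf KO and 5.54% (4.08% to 7.31%) of all control B3 cells. Cells with under 50% lambda still had a median of 13 lambda UMIs beside 41 of Igkc in c-Maf KO, and 17 beside 44 in control. B2 was mixed too: such cells had a median of 10 lambda UMIs in c-Maf KO and 14 in control, and 45.1% and 50.3% of B2 cells with at least 3 light chain UMIs were unassigned. In B1 the median of such cells was 1 lambda UMI in each library, and T-Cd6 cells had a median of 0. Iglc2 and Iglc3 are near-identical copies whose shared reads could have been counted for either, so their separate levels are uncertain.

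Between the genotypes B3 cells were alike in most of their transcripts. Of 7767 genes tested by size, 140 (1.8%) were higher and 98 (1.26%) lower in c-Maf KO B3 than in control B3, and the median log2 ratio was 0.03. Among 3832 genes with at least 200 UMIs, 99.4% stood within 1.5-fold, with 14 higher and 9 lower. None of the 5 markers of B3 was called, and their log2 ratios ran from -0.07 for Cd74 to 0.05 for Igkc. None of the 22 mature follicular genes was called either, nor any of 17 class II, 26 receptor and co-receptor, 28 B lineage transcription factor, 20 respiratory chain or 16 glycolysis genes tested. Their median log2 ratios lay between -0.05 and 0.10. With 1.8% and 1.26% of all genes called, lists of this size would hold few calls or none. The absence of calls is therefore not particular to these markers and lists. Divided by called sex, the follicular list had a median log2 ratio of 0.50 in cells called female and -0.20 in cells called male. Pax5, which holds B cells in their lineage, had 269 CPM in c-Maf KO and 255 in control, and Ebf1, its partner, 1372 and 1270.

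**Figure D4:**
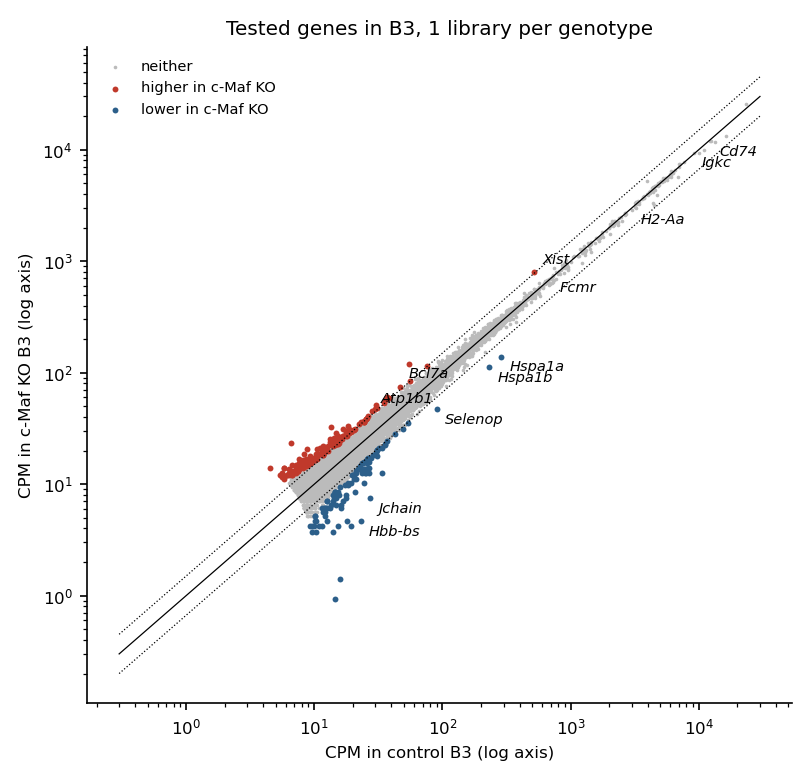
Level of each of 7767 tested genes in c-Maf KO B3 (vertical, CPM, log axis) against control B3 (horizontal, CPM, log axis), with the line of equality and dotted lines at 1.5-fold. The 140 genes called higher (red) and 98 called lower (blue) lie mostly under 100 CPM, and Cd74, Igkc, H2-Aa and Fcmr lie on the line of equality.

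The leading genes of the contrast had modest ratios. Of the 12 highest among genes with at least 200 UMIs, 10 passed the rule. AY036118 had 119 CPM (105 to 135) in c-Maf KO and 54.9 (48.2 to 62.2) in control B3, a log2 ratio of 1.12 (0.86 to 1.38). Bcl7a, a subunit of the SWI/SNF chromatin remodeler, had 74.8 CPM in c-Maf KO and 46.6 in control (0.68, 0.38 to 0.99), but its direction turned in cells called male, at -0.29. Atp1b1, a sodium pump subunit, had 45.3 CPM in c-Maf KO and 28.4 in control, and turned to -0.14 in cells with a Xist and no Y-linked UMI. Ramac, Elmsan1, Mepce, Atp8a1, Tbl1x, Camk1d and Lars2, a mitochondrial leucyl-tRNA synthetase, had log2 ratios from 0.59 to 0.67. Tnpo1 and H2-Q6 stood at 0.58, just inside the limit, and H2-Q6 has near-identical class I relatives. Of the 12 lowest, 9 passed. Selenop, a selenium carrier made mainly by hepatocytes, had 46.7 CPM in c-Maf KO and 90.004 in control (-0.94, -1.28 to -0.63). Nptn, Rrs1, Atp6ap2, Ifi214 and Anxa5 had log2 ratios from -0.65 to -0.58. D1Ertd622e, Siah2 and Zbtb32 stood between -0.58 and -0.56 and were not called.

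Of the B cell and cell process lists, heat shock was the one with more than 1 lower member. Of 10 measured members, 3 were lower and 0 higher, against 1.26% lower and 1.8% higher of all genes. Hspa1a had 139 CPM (124 to 156) in c-Maf KO and 289 (273 to 305) in control B3, and Hspa1b 112 (98.0 to 127) and 233 (219 to 247), and both encode HSP70. The third was Hsph1, a partner of HSP70, with 35.5 CPM in c-Maf KO and 53.8 in control, and its log2 ratio turned to 0.082 in cells called male. Reads of Hspa1a and Hspa1b cannot be told apart over much of their length, so they do not count as separate members. In cells called male the log2 ratios of Hspa1a and Hspa1b were -1.43 and -1.81, while in cells called female they were -0.16 and -0.19. Hspa1a and Hspa1b were called lower in cells called male only, and Hsph1 in cells called female only. T-Cd6 cells had the same order, with 51.6 CPM of Hspa1a in c-Maf KO and 126 in control. Of 17 measured interferon-stimulated genes, Isg15, Ifi213 and Ifitm3 were higher and Gbp2 lower. Isg15 rested on 32 UMIs in c-Maf KO, 16 of them in 1 cell, and 30 in control, and Ifitm3 on 79 in c-Maf KO, 45 in 1 cell, and 109 in control. Ifitm3 turned to a log2 ratio of -0.45 in cells called female, and Gbp2 to 0.27 in cells called male.

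A few members of B lineage lists were called, at low counts. Sox4, a transcription factor of early B cells, had 39.3 CPM in c-Maf KO and 25.7 in control, on 84 and 114 UMIs, with 15 in 1 cell of each, and its log2 ratio turned to -0.12 in cells called male. Dtx1, a Notch target of marginal zone B cells, had 28 UMIs in c-Maf KO and 33 in control (log2 0.82, 0.04 to 1.59), and turned to -0.29 with the cells thinned. Map3k14, the NF-kappaB-inducing kinase, had 36.5 CPM in c-Maf KO and 22.95 in control, and turned to -0.31 in cells with a Y-linked and no Xist UMI. Tipin, of the replication fork, was higher at 27.1 and 15.3 CPM, and Cdca7 lower at 8.41 and 15.3. Jchain, the joining chain of secreted IgM, had 16 UMIs in c-Maf KO and 121 in control, where 39 lay in 1 cell (log2 -1.83, -2.72 to -1.11).

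Transcripts of other cell types were present in B3 and differed between the libraries. Of 11 measured endothelial markers 5 were lower in c-Maf KO B3, where 1.26% of all genes were lower and 1.8% higher. The 12 listed summed to 133 CPM in c-Maf KO and 203 in control. Stab2, the stabilin-2 of sinusoids, had 4.21 CPM in c-Maf KO and 15.3 in control B3. Of 6 Kupffer cell markers 2 were lower, with sums of 40.2 CPM in c-Maf KO and 68.4 in control. All 3 measured erythroid markers were lower, with sums of 24.3 and 61.4 CPM, and both measured NK markers, of which Ccl5 had 79 of its 128 control UMIs in 1 cell. Without the cells holding Zbtb32, the NK markers turned to log2 ratios of 0.85 for Ccl5 and 0.56 for Nkg7. These differences moved with the called sex. Among cells called male, all 6 endothelial markers with enough UMIs were lower, with a median log2 ratio of -1.94, and so were the 3 erythroid ones, with a median of -2.65. Of all genes 2.68% were lower in cells called male and 4.02% in cells called female. Among cells called female, none of 3 endothelial markers was called, with a median of 0.23, and Hba-a1 of erythroid cells stood at 0.71. S100a8 of neutrophils, Ms4a6c of monocytes and Trf of hepatocytes were higher, and Fabp1 of hepatocytes was lower. None of 8 T cell markers had enough UMIs, and they summed to 24.8 CPM in c-Maf KO and 27.9 in control. The part of such transcripts in the calls of B3 was not tested, beyond leaving out the tenth of cells richest in them, which gave 123 higher and 99 lower genes. Since Xist had 792 CPM in c-Maf KO and 517 in control B3, the share of cells from the female mouse differed too.

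The contrast looked different when the cells were divided by called sex. B3 cells called female numbered 290 in c-Maf KO and 283 in control (the female pair), and those called male 189 and 548 (the male pair). Their median depths were 3387.5 and 5500 UMIs in the female pair and 4014 and 4045.5 in the male pair. In the female pair 391 of 5753 genes (6.8%) were higher and 231 (4.02%) lower in c-Maf KO, with a median log2 ratio of 0.05. In the male pair 153 of 6076 (2.52%) were higher and 163 (2.68%) lower, around a median ratio of 0.01. Of 5613 genes tested in both pairs, 2 were higher in both and 5 lower in both, while 65 were called in opposite directions. Of the 140 genes called higher between the pools, 54 could be tested in both pairs, 47 of these had the same sign in both, and 2 were called in both. Of the 98 called lower, 43 could be tested in both, 37 had the same sign and 5 were called in both. AY036118 was among the higher, with 115 and 125 CPM in the c-Maf KO female and male and 52.4 and 56.7 CPM in the control female and male. Selenop was among the lower, with 46.2 and 47.5 CPM in the c-Maf KO mice and 90.4 and 89.7 in the control mice. The pairs divide the same cells whose sums gave the calls between the pools. For genes so called, a shared sign was therefore favored in advance and is no separate check.

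Of the 65 genes with opposite directions, 38 were high in the c-Maf KO male and the control female, and 27 in the c-Maf KO female and the control male. Both sets, and the genes named from them, were chosen after the values were seen. S100a4 had 89.1 CPM in the c-Maf KO female and 237 in the c-Maf KO male, against 451 in the control female and 40.4 in the control male. S100a6 had 855 and 1672 CPM in the c-Maf KO female and male, against 2239 and 883 in the control female and male. The immediate-early genes Fos, Nr4a1 and Atf3 were in this set. Atf3, a stress-induced transcription factor, had 13.8 CPM in the c-Maf KO female and 58.5 in the c-Maf KO male, against 67.4 and 11.3 in the control female and male. Ccnd2, the cyclin D2 gene, had 132 and 283 CPM in the c-Maf KO female and male, against 276 and 137 in the controls. The other set held Cr2, with 42.9 and 17.7 CPM in the c-Maf KO female and male, against 23.5 and 52.0 in the control female and male, and Il21r, Fcrl1 and Stap1.

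**Figure D5:**
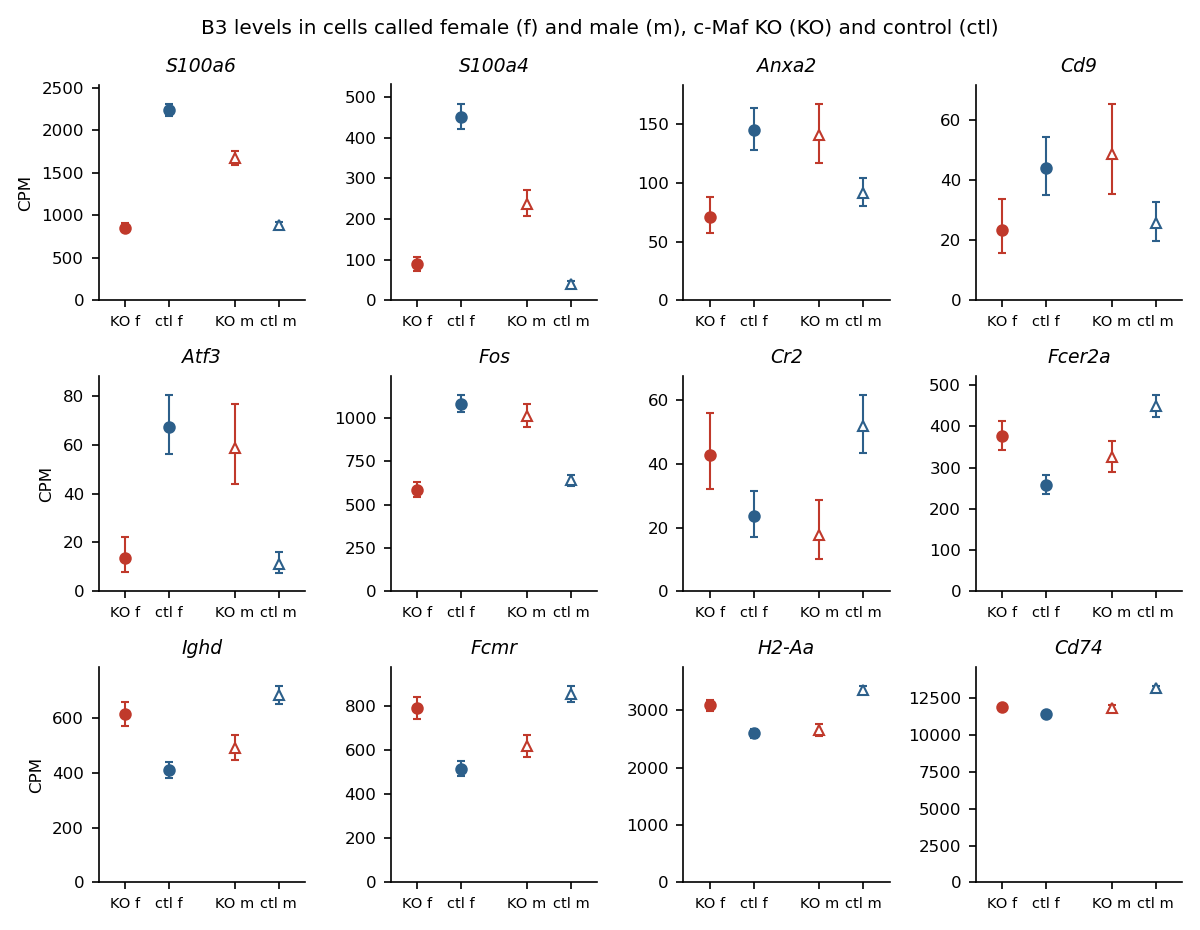
Level (CPM, linear axis from 0) of 12 genes in B3 cells called female (f, filled circles) and male (m, open triangles) in c-Maf KO (KO, red) and control (ctl, blue), with exact 95% Poisson intervals. S100a6, S100a4, Anxa2, Cd9, Atf3 and Fos are high in the control female and the c-Maf KO male, and Cr2 is high in the c-Maf KO female and the control male.

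The follicular list had called members mainly in the female pair, and the B-1 list in both pairs. The shares over all genes are those given above for each pair. Of 22 mature follicular genes 7 were higher and 1 lower in the c-Maf KO member of the female pair, with a median log2 ratio of 0.50, and 0 were higher and 1 lower in the male pair, with a median of -0.20. Of 6 measured B-1 and fetal-type genes 4 were lower in the female pair, with a median of -1.10, and 3 were higher in the male pair, with a median of 0.60. Fcer2a had 377 CPM in the c-Maf KO female and 325 in the c-Maf KO male, against 257 and 449 in the control female and male, and Ighd 614 and 493 against 411 and 685. Cells with at least 5 UMIs of S100a6 were 10.7% of B3 in the c-Maf KO female and 23.3% in the c-Maf KO male, against 30.0% in the control female and 12.04% in the control male. At 2777 UMIs a cell they were 7.49% and 19.5% in the c-Maf KO mice, against 21.1% and 9.25% in the control mice. In B2 28 genes were opposite and 14 the same way of 5112 tested in both pairs, and in T-Cd6 21 and 21 of 3413. Of the 65 genes, 33 of 51 with enough UMIs in B2 and 15 of 29 in T-Cd6 had the same pair of signs there as in B3. The rate of such matches over all genes is not given here. These counts therefore do not tell whether the pattern is shared with B2 or T-Cd6 or particular to B3. With 1 mouse of each sex and genotype, mouse, sex and genotype cannot be told apart in these contrasts.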

How the data were processed

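Single-cell RNA was measured in 1 c-Maf KO and 1 control library. The authors deposited UMI counts per gene and cell as whole numbers, with 32285 genes, and an annotation with cluster name, genotype, sex call and the percent of mitochondrial UMIs of each cell, per the file headers. Per the submitters' processing notes the build was mm10 and the tools included Seurat 3.2.3, Cell Ranger 4.0.0 and FastQC 0.11.3, without roles or settings. Cells were joined to counts by barcode and library, and no column of per-sample values was left unmatched (0).

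Counts were summed over the cells of a cluster in each library and scaled to CPM. Intervals are exact Poisson for sums, Clopper-Pearson for shares and conditional binomial for ratios, at 95%. Log2 ratios had 0.5 UMI added to each sum, and for sums of 0 the limit is given as 3 UMIs. With 1 library per group no p-value was computed. Shares of cells are over all UMIs unless given as thinned, to 2777 UMIs a cell, the tenth percentile of B3. Scrublet, run through scanpy 1.11.5, marked 148 of 8166 c-Maf KO cells and 1 of 7669 control cells. It had not worked in the control, so doublets were left in place. Python 3.11.15, numpy 2.4.6, scipy 1.17.1 and pandas 2.3.3 were used.

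Genes named are Maf, the 5 markers, the immunoglobulin constant genes, the 12 highest and 12 lowest ratios among genes with 200 UMIs or more (without sex-linked, predicted, mitochondrial, ribosomal, hemoglobin, immunoglobulin and other cells' marker genes), list members past the size rule or highest in B3, and 8 genes per direction for B3 over B2. The members and the 39 lists were chosen with earlier results of these data known. A few genes that this rule selects are not reported here.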

Additional observations from a re-analysis of the deposited data

Results flagged for a closer look

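The genes below passed the size rule in opposite directions in the female pair and in the male pair. Each has 2 log2 ratios (c-Maf KO B3 over control B3), first for cells called female and then for cells called male. The difference between the pairs was not tested, and each mouse is 1 animal. S100a4 had -2.33 and 2.55, S100a6 -1.39 and 0.92, and Anxa2 -1.02 and 0.62. Cd9, a tetraspanin of marginal zone and B-1 cells, had -0.88 and 0.93. Among immediate-early and activation genes, Atf3 had -2.25 and 2.37, Nr4a1 -1.44 and 0.97, Fos -0.89 and 0.66, Rgs1 -0.87 and 1.17, and Cd86, a costimulatory ligand, -0.76 and 0.96. Ccnd2 had -1.06 and 1.04, and Odc1, of polyamine synthesis, -0.82 and 0.76. Gimap4 had -0.92 and 0.63, and Gbp7, an interferon-induced GTPase, -1.40 and 0.78. Cr2 went the other way, with 0.87 and -1.52. Beside these, median depth was 3387.5 UMIs in the c-Maf KO female and 5500 in the control female, and 4014 in the c-Maf KO male and 4045.5 in the control male, and the part of depth was not tested.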

How the results depend on the processing

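Of 76 values for the main comparisons under the alternatives, 49 stayed within the limits set and 27 moved. The count of genes higher in c-Maf KO B3 was 14 with at least 200 UMIs, 221 with at least 10 UMIs, 20 at a fold of 2, 396 in cells with a Xist and no Y-linked UMI (female-type) and 391 in cells called female. The count of lower genes was 9, 180 and 36 at the first 3 of these settings, 64 with 5 UMIs added, 240 in female-type and 156 in cells of male type (Y-linked and no Xist UMI), 231 in cells called female and 163 in cells called male. Thinning the cells gave 107 higher and 88 lower genes, of which 25 and 27 were among the 140 and 98 (fewer cells and UMIs, by construction). Without the cells holding Zbtb32, 140 were higher and 84 lower, sharing 76 and 49. The B3 share of the B lineage was 22.0% in female-type c-Maf KO cells and 15.4% in male-type c-Maf KO cells (22.1% and 13.8% by called sex), and 36.9% and 60.4% in those of control (37.0% and 52.9%). At a fold of 2, 7 follicular genes in c-Maf KO and 5 in control were higher in B3 than in B2, and with 200 UMIs 2 pro-B genes were lower in each. At 95% purity the lambda share was 71.9% in c-Maf KO and 90.2% in control.

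Of 1023 values of named genes, 826 stayed, 178 moved and 19 reversed. In male-type cells Bcl7a had a log2 ratio of -0.65, Hsph1 0.35, Sox4 -0.0079, Map3k14 -0.31 and Gbp2 0.26. In cells called male Bcl7a had -0.29, Hsph1 0.082, Sox4 -0.12 and Gbp2 0.27. In female-type cells Atp1b1 had -0.14, Ifitm3 -0.39 and Hba-a1 0.77, and in cells called female Ifitm3 had -0.45 and Hba-a1 0.71. Without the cells richest in other types' transcripts Ifitm3 had -0.22 and Hba-a1 0.47. Thinning gave Dtx1 -0.29, and leaving out cells with Zbtb32 gave Nkg7 0.56 and Ccl5 0.85. The causes were not tested.

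The alternatives by called sex and without Zbtb32 were chosen after seeing the data. No paired analysis was possible because each group has 1 library, so that no replicate numbers pair the libraries, and no replicate was left out for the same reason. Within called sex, c-Maf KO and control mice were set side by side without a test.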
